A study of Homo sapiens with 6 samples.

Results

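Aminoacyl-tRNA synthetases are the enzymes that attach each amino acid to its transfer RNA (tRNA), the step that supplies the ribosome. Their genes were taken from the deposited count table of CALR knockdown and control MDA-MB-231 cells. A gene was a member if it was annotated as protein-coding and its symbol was 1 letter followed by ARS or ARS2, or was EPRS, FARSA, FARSB, AIMP1, AIMP2 or EEF1E1. The rule found 40 of 31582 genes: 20 synthetase genes named without a final 2, which serve the cytosol, 17 whose symbols end in 2 and which serve mitochondria, and 3 scaffold genes (AIMP1, AIMP2, EEF1E1). The rule itself used no measured value, but the members were chosen with earlier results of these data known.

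Most amino acids have a nuclear gene for a cytosolic synthetase and another for a mitochondrial one. GARS and KARS each encode the enzyme of both compartments, and EPRS joins the glutamate and proline enzymes in 1 protein. The cytosolic phenylalanine enzyme is built from the products of FARSA and FARSB. Several cytosolic synthetases sit with AIMP1, AIMP2 and EEF1E1 (also called AIMP3) in the multi-synthetase complex. Many cytosolic synthetase genes are described as targets of ATF4, the transcription factor of the amino acid starvation and endoplasmic reticulum (ER) stress response, which binds with C/EBP partners to a composite element.

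MDA-MB-231 is an established triple-negative, mesenchymal-like human breast cancer line. The knockdown group was the line carrying an shRNA against CALR, which encodes calreticulin, a calcium-binding chaperone of the ER, and the control group was the line with a non-targeting construct (NTC). Both were grown in DMEM with fetal bovine serum and collected below confluence, and the strand-specific libraries were made from polyadenylated RNA, with 3 libraries per group. Whether a group's libraries are separate cultures, transductions or shRNAs is not in the labels, so p-values measure the spread between these libraries, which may be technical. The series title places CALR downstream of HIF-1 and upstream of Wnt/beta-catenin signalling.

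Library totals were between 34639090 and 42425310 counts. CALR had 493, 66.4 and 110 counts per TMM-scaled library size (CPM) in knockdown libraries 1 to 3 against 1213, 979 and 926 CPM in control libraries 1 to 3. Library 1 thus kept 47.5% of the control mean, library 2 kept 6.39% and library 3 kept 10.6%, and the groups did not overlap. The log2 fold change of CALR was −2.22 ± 0.64 (SE), and edgeR's quasi-likelihood test gave it an adjusted p of 0.209. Markers were read per library total, without TMM. On that scale the mesenchymal markers VIM, CD44, AXL and MSN were at 316 to 2982 CPM. Of the markers expected to be low, ESR1 was at 0.322 to 0.626 CPM, EPCAM at 5.49 to 9.08 CPM, GATA3 at 6.40 to 11.6 CPM and ERBB2 at 29.2 to 41.1 CPM. Blood markers reached at most 1.06 CPM (CD14), and fibroblast and endothelial markers 11.6 CPM (LUM).

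All 40 members passed the low-count filter and were tested, and none passed the adjusted threshold of 0.05 with edgeR's quasi-likelihood test, where the share over all 16394 genes was 0%. The adjusted p of the members, by the Benjamini-Hochberg method, lay between 0.159 and 0.994. Before adjustment, at a nominal p under 0.05, 5 members were higher in knockdown (VARS, QARS, SARS2, FARS2 and LARS2), 12.5% of the 40 beside 8.17% of all genes tested. The 2 lower at that level were LARS and AARS2, 5% of the 40 beside 7.36% of all genes. Knockdown and control libraries did not overlap for 9 members that were higher, 22.5% beside 11.3% of all genes, and for 5 that were lower, 12.5% beside 11.2%. The members were thus divided between both directions, and with TMM scaling their share of lower values was close to the background. With library size alone, the median of all genes moved from −0.00072 to −0.13 (log2), with 730 genes higher (4.45%) and 1809 lower (11%) at a nominal p under 0.05 against 1340 and 1206 with TMM. The members then stood at 5 higher (12.5%) and 10 lower (25%), the lower ones being AARS, CARS, GARS, LARS, TARS, YARS, AARS2, MARS2, NARS2 and TARS2. Leaving out knockdown library 2 put 8 of the 40 members (20%) past edgeR's adjusted threshold, beside 15.5% of 16783 genes. Leaving out any of the other 5 libraries put none of them past it.

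**Figure D1:**
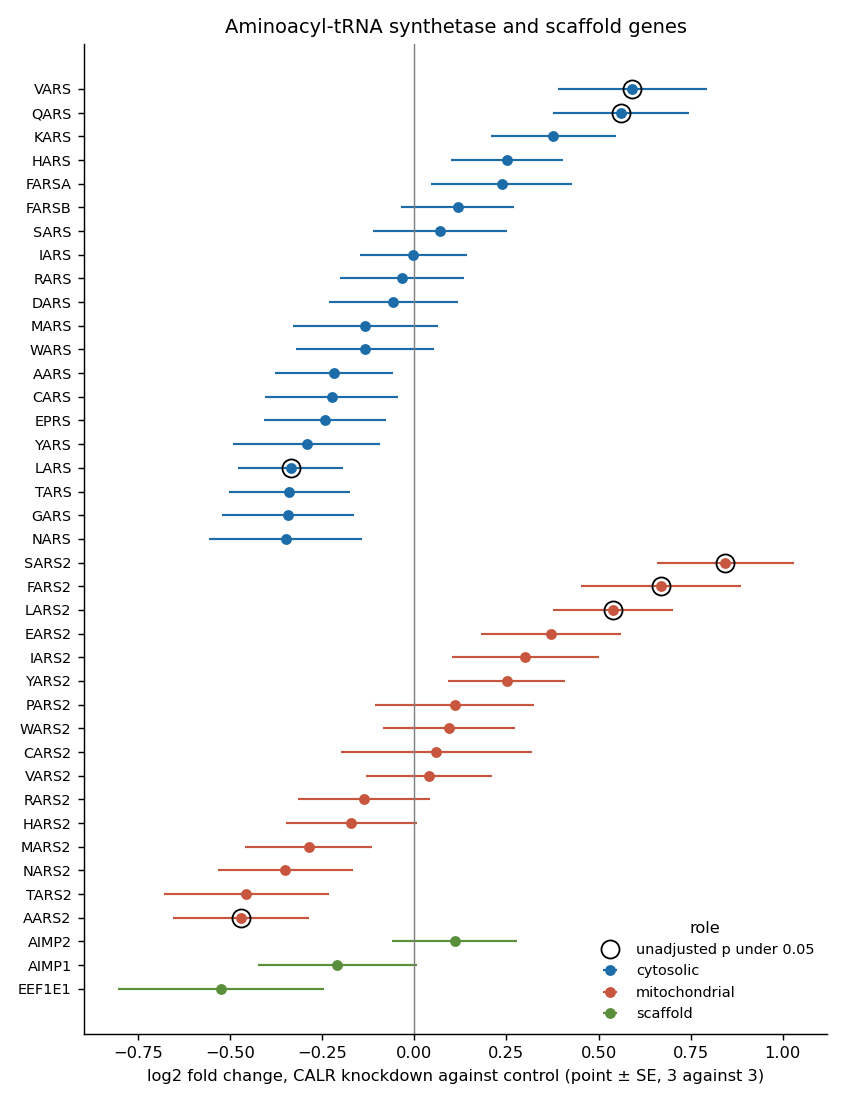
Log2 fold change of 39 of the 40 genes in CALR knockdown against control (x axis; point, edgeR estimate; line, ± SE; 3 against 3 libraries), grouped by cytosolic, mitochondrial and scaffold role. Rings mark the 7 genes at a nominal p under 0.05, 5 of them positive and 2 (LARS and AARS2) negative.

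Levels per transcript length, as the deposited FPKM values (fragments scaled to transcript length and library size), differed between the compartments in every library. The median cytosolic synthetase gene was at 44.4 to 51.0 FPKM in the 6 libraries and the median mitochondrial one at 7.72 to 9.20 FPKM. SARS, the cytosolic serine enzyme, was highest with a mean of 233 FPKM, followed by KARS (lysine) and GARS (glycine), both with a mean of 117 FPKM over all libraries. The lowest cytosolic gene was FARSB at 16.4 FPKM, and 14 of the 17 mitochondrial genes had a lower mean than that. CARS2 (cysteine) at 38.7 FPKM and IARS2 (isoleucine) at 37.2 FPKM led the mitochondrial group, and AARS2 (alanine) was lowest at 3.06 FPKM. The member counts behind these levels ranged from 351 to 23060 reads per library.

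**Figure D2:**
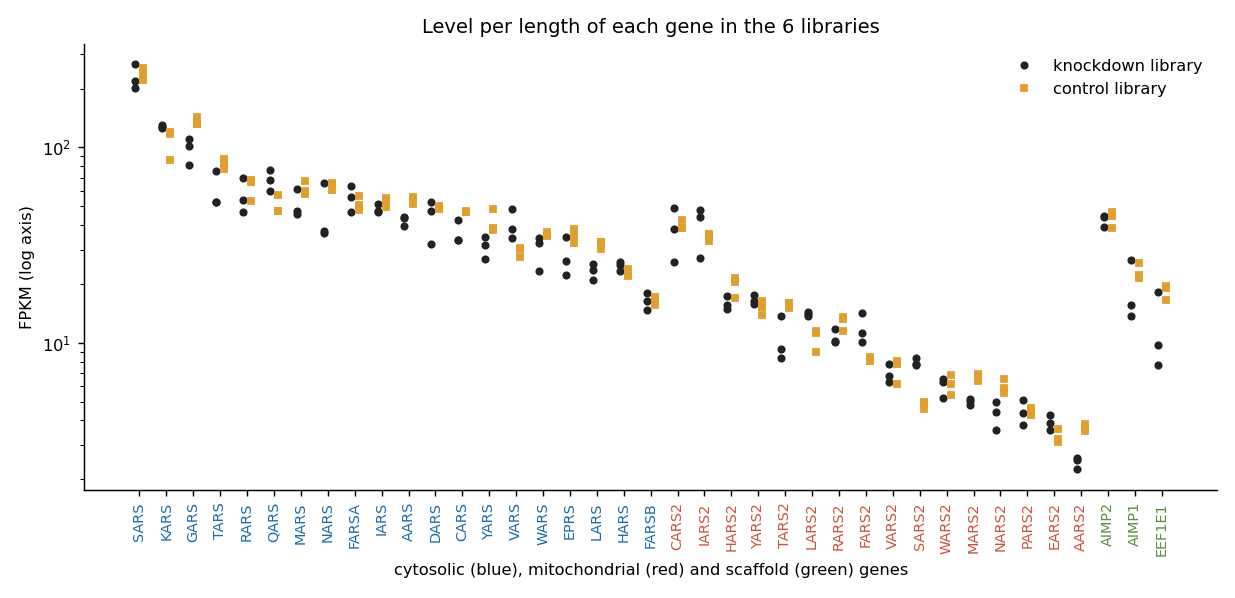
FPKM of 39 genes (y axis, log scale) in the 3 knockdown libraries (circles) and the 3 control libraries (squares), ordered by mean level within each role. SARS is highest, and 14 of 17 mitochondrial genes have a mean below FARSB, the lowest cytosolic gene.

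Among cytosolic genes, those with the largest positive differences were VARS and QARS. VARS (ENSG00000204394.12) lies on chromosome 6 at 31777518 to 31795953 and QARS (ENSG00000172053.14) on chromosome 3 at 49095932 to 49105135 (GENCODE 29 on GRCh38, minus strand). VARS, the valine enzyme, was at 187, 152 and 249 CPM in knockdown libraries 1 to 3 and at 139, 132 and 118 CPM in controls. Every knockdown library was above every control, library 3 furthest. The difference was 0.59 ± 0.20 (log2 fold change ± SE), with a nominal p of 0.0169 and an adjusted p of 0.239 from edgeR. QARS, the glutamine enzyme of the multi-synthetase complex, was at 239, 171 and 225 CPM against 166, 133 and 131 CPM. Its groups did not overlap either, although knockdown library 2 was only just above control library 1. QARS had a log2 fold change of 0.56 ± 0.18 (SE) and an adjusted p of 0.228 from edgeR. Without knockdown library 2, edgeR's adjusted p was 0.0240 for VARS (log2 fold change 0.75) and 0.0235 for QARS (0.70), and without any 1 of the other 5 libraries it was 0.269 to 0.720 for VARS and 0.234 to 0.715 for QARS.

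KARS, the lysine enzyme of both compartments and a subunit of the complex, was at 350, 315 and 376 CPM against 222, 296 and 283 CPM. All knockdown values were above the controls, with a log2 fold change of 0.38 ± 0.17 (SE) and an adjusted p of 0.331 from edgeR. HARS, the histidine enzyme, was at 134, 132 and 158 CPM against 120, 124 and 113 CPM, again without overlap (0.25 ± 0.15). FARSA, which lies 4540 bases from CALR on chromosome 19 with no other annotated gene between them, was at 132, 101 and 159 CPM against 106, 119 and 106 CPM. Its knockdown values spanned the controls, with a log2 fold change of 0.24 ± 0.19 (SE), and its partner subunit FARSB was at 0.12 ± 0.15.

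LARS, the leucine enzyme and also a complex subunit, was the 1 cytosolic gene lower at a nominal p under 0.05 (ENSG00000133706.17, chromosome 5, 146113038 to 146182660, minus strand). It was at 126, 124 and 120 CPM in knockdown and 164, 146 and 157 CPM in control libraries. The 3 knockdown values were close to each other and all below the controls. The log2 fold change of LARS was −0.34 ± 0.14 (SE), with a nominal p of 0.0430 and an adjusted p of 0.307 from edgeR, and it was −0.12 once the GC trend of each library was taken out. TARS, the threonine enzyme, was at 270, 355 and 285 CPM against 397, 357 and 397 CPM, so that knockdown library 2 was just below control library 2 (−0.34 ± 0.16).

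GARS, the glycine enzyme of both compartments, was at 244, 277 and 351 CPM against 402, 356 and 349 CPM. Knockdown libraries 1 and 2 were below all controls, and library 3 was between controls 2 and 3. The log2 fold change was −0.34 ± 0.18 (SE), with an adjusted p of 0.382 from edgeR, opposite in sign to KARS, the other gene that serves both compartments. NARS, the asparagine enzyme, was at 127, 210 and 137 CPM against 211, 190 and 203 CPM. Only knockdown library 2, which had the least CALR, was within the control range (−0.35 ± 0.21). Without that library, edgeR's adjusted p was 0.0242 for NARS (log2 fold change −0.60) and 0.0454 for TARS (−0.46), and without any 1 of the other 5 it was 0.619 to 0.810 for NARS and 0.450 to 0.801 for TARS.

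SARS, the most abundant member, was at 441, 437 and 619 CPM against 452, 505 and 467 CPM. Libraries 1 and 2 were below the controls and library 3 above them. Its log2 fold change was 0.071 ± 0.18 (SE), with an adjusted p of 0.865 from edgeR, and it was −0.077 with library size alone, −0.072 on log2(FPKM + 1) and −0.098 without knockdown library 3. The 17 cytosolic genes that missed a nominal p of 0.05 had log2 fold changes between −0.35 and 0.38. In all, 13 of the 20 cytosolic genes had a negative and 7 a positive log2 fold change. The cytosolic median was −0.095 beside −0.00072 over all genes tested, with library medians of −0.14, −0.072 and 0.062 in knockdown libraries 1 to 3.

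The signs were also counted by whether a gene is described as an ATF4 target. Of the 13 cytosolic genes widely described as ATF4 targets (AARS, CARS, EPRS, GARS, IARS, LARS, MARS, NARS, SARS, TARS, VARS, WARS and YARS), 11 had a negative log2 fold change, with a median of −0.22. Of the other 7 cytosolic genes (DARS, FARSA, FARSB, HARS, KARS, QARS and RARS), 5 were above 0, and the median was 0.24. At a nominal p under 0.05, 1 of the 13 was lower (LARS) and 1 higher (VARS), and 1 of the 7 was higher (QARS). Over all genes tested, 7.36% were lower and 8.17% higher at that level, and 8213 of 16394 had a negative log2 fold change. The median of the 13 stayed negative under every alternative run, from −0.37 on log2(FPKM + 0.1) to −0.13 without knockdown library 2, and that of the 7 stayed positive, from 0.084 with library size alone to 0.30 without knockdown library 2. The difference between the lists was not tested, since its members were grouped with earlier results known.

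To show the promoter sequence beside these values, RefSeq windows of 300 bases, the last 50 of them transcribed (GRCh38.p14), were searched for TGATGNAA, the core of the ATF4-C/EBP composite element, on both strands (reverse complement TTNCATCA). Of the 20 cytosolic genes, 16 had a window in the table, as had 14 of 17 mitochondrial genes and all 3 scaffold genes. AARS2, DARS, LARS, VARS, VARS2 and YARS were among those with none. The letters were found in 7 of the 16 cytosolic genes (7 of 21 windows), in 1 of 14 mitochondrial genes and in none of the scaffold genes, beside 3.62% of all 35116 windows in the table. A match describes the letters and is not a bound site.

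The 8 matches are printed 5′ to 3′ along the gene's own strand, within 80 bases each that end at most 30 bases into the transcript, with the matched letters in capitals. They come from chr16:70289650-70289729 (minus strand) for AARS, chr11:3057394-3057473 (minus) for CARS, chr7:30594809-30594888 (plus) for GARS, chr9:92293668-92293747 (minus) for IARS, chr12:57488018-57488097 (plus) for MARS, chr18:57621807-57621886 (minus) for NARS, chr5:33440915-33440994 (plus) for TARS and chr12:32756051-32756130 (minus) for YARS2.
AARS: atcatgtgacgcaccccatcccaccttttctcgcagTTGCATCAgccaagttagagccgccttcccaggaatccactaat
CARS: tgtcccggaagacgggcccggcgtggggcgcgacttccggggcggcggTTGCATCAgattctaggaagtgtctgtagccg
GARS: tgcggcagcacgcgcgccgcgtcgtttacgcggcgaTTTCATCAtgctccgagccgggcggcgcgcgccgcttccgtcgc
IARS: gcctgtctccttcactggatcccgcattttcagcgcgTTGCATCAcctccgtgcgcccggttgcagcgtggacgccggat
MARS: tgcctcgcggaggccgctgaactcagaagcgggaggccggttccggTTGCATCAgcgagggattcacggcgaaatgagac
NARS: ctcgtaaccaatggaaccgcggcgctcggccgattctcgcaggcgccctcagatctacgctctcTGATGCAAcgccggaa
TARS: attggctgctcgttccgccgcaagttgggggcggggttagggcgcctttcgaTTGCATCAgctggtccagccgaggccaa
YARS2: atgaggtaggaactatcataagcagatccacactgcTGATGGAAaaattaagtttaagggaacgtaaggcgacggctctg

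The matched word was TTGCATCA in AARS, CARS, IARS, MARS and TARS, its reverse complement TGATGCAA in NARS, and TTTCATCA in GARS, in the second of its windows. Counted from the first transcribed base as position 0, the word began at −33 in GARS, −13 in IARS, −4 in MARS, −2 in CARS, 2 in TARS and 14 in NARS, so that 6 of the 7 cytosolic matches were close to the start. It began at −187 in AARS and −197 in YARS2. All 7 cytosolic genes with the letters had a negative log2 fold change, between −0.35 (NARS) and −0.0027 (IARS), with a median of −0.22. These 7 genes are all among the 13 described as ATF4 targets, so the split by letters is not independent of that by description. The value of IARS was positive with DESeq2 and its size factors (0.010), without the low-count filter (0.015), with the GC trend removed (0.21), and without knockdown library 1 (0.017), knockdown library 2 (0.017) or control library 1 (0.053). The 9 cytosolic genes with a window and no match had a median of 0.12, with 6 positive and 3 negative, and of −0.019 with library size alone and −0.010 on log2(FPKM + 1). The 4 cytosolic genes with no window (DARS, LARS, VARS and YARS) had a median of −0.17, with 3 negative and 1 positive.

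Library by library, the median of the 7 genes with the letters was −0.33, −0.38 and −0.067 in knockdown libraries 1 to 3, and 0.094, −0.048 and −0.042 in the controls, as log2 CPM minus the control mean. For the 9 genes without them it was 0.18, 0.0092 and 0.38 in the knockdown libraries. The gap was present in each knockdown library, but its level moved between them, and library 3 was nearest to the controls for the genes with the letters. MARS shares 12.4% of its exon bases with genes on the other strand, DDIT3 among them, and the strand setting of the counting is not given in the sources used here. Of the other letters searched, CACGTG, the E-box bound by MYC and MAX, occurred in IARS, CARS2, EARS2, MARS2 and AIMP2 (7.26% of all windows), and GAAANNGAA, the interferon-stimulated core, in GARS, IARS, WARS, EARS2, AIMP1 and EEF1E1 (8.11% of all windows).

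**Figure D3:**
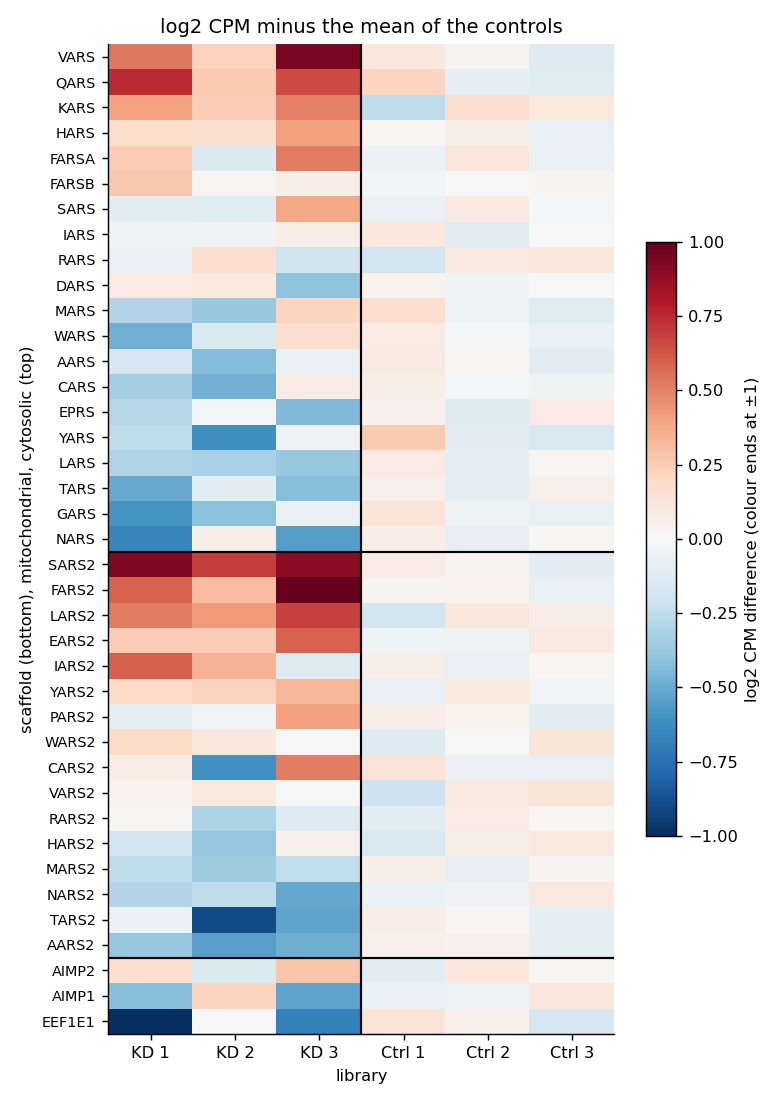
Log2 CPM minus the mean of the 3 controls for 39 genes (rows; red, above; blue, below; colours end at ±1) in knockdown (KD) and control (Ctrl) libraries 1 to 3. SARS2, FARS2 and LARS2 are red in all 3 knockdown libraries, AARS2 and LARS are blue in all 3, and NARS and EEF1E1 are near the controls in knockdown library 2.

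The scaffold genes were not called in either direction. EEF1E1 was at 12.7, 27.5 and 17.1 CPM in knockdown and 29.9, 28.1 and 24.3 CPM in control libraries. Knockdown libraries 1 and 3 were below all controls, and library 2 was among them. The log2 fold change was −0.52 ± 0.28 (SE), with an adjusted p of 0.393 from edgeR, and −0.88 with an adjusted p of 0.0257 without knockdown library 2. Without any 1 of the other 5 libraries it was −0.60 to −0.30, with edgeR's adjusted p at 0.526 to 0.745. EEF1E1 shares 18.7% of its exon bases with the read-through gene EEF1E1-BLOC1S5 on the same strand. AIMP1 (−0.21 ± 0.22), with 57.4, 88.9 and 53.1 against 73.5, 73.9 and 83.1 CPM, was also highest of the knockdown libraries in library 2, there above all controls, and AIMP2 was at 0.11 ± 0.17. AIMP2 shares 28.9% of its exon bases with EIF2AK1 on the other strand.

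Over the 11 genes of the multi-synthetase complex (EPRS, IARS, LARS, MARS, QARS, RARS, KARS, DARS and the 3 scaffold genes), 8 were negative and 3 positive, and the median was −0.057. That median was 0.068 once the GC trend was removed. Its subunits QARS and KARS were among the highest and LARS and EEF1E1 among the lowest members, so the complex had values in both directions. By the structural classes of the catalytic domain, the 10 class I cytosolic genes had a median of −0.13 (8 negative) and the 10 class II genes 0.0069 (5 negative). EPRS, which joins the glutamate and proline enzymes, was counted in class I only. The class I median was −0.071 with the GC trend removed and −0.030 without knockdown library 1. The class II median was −0.13 with library size alone.

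Of the mitochondrial genes, SARS2, the serine enzyme, differed most (ENSG00000104835.14, chromosome 19, 38915266 to 38930896 of GRCh38, minus strand). It was at 20.8, 17.7 and 20.4 CPM in knockdown and 11.6, 11.1 and 10.2 CPM in control libraries, which the fit put at 79.5% higher. All knockdown libraries were well above all controls. The log2 fold change was 0.84 ± 0.19 (SE), with a nominal p of 0.00146 and an adjusted p of 0.159 from edgeR, and over all alternatives its adjusted p ranged from 0.00224 with DESeq2 to 0.560. DESeq2 called 3.23% of all genes. SARS2 also passed 0.05 without the low-count filter (edgeR adjusted p 0.0404), where 3.13% of genes did, and without knockdown library 2 (0.0179), but not without any 1 of the other 5 libraries (0.0899 to 0.560). SARS2 shares 46.2% of its exon bases with the annotated gene AC011455.2 on the same strand and 10.8% with MRPS12 on the other, so part of its reads may belong to them.

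FARS2, the mitochondrial phenylalanine enzyme, was at 25.1, 20.6 and 33.5 CPM against 16.9, 17.0 and 15.9 CPM. Its groups did not overlap, and knockdown library 3 was highest (0.67 ± 0.22, SE; adjusted p 0.226 from edgeR). LARS2, the leucine enzyme, was at 74.9, 70.3 and 83.9 CPM against 46.2, 56.7 and 54.7 CPM. Every knockdown value was above every control, with a log2 fold change of 0.54 ± 0.16 (SE), a nominal p of 0.00925 and an adjusted p of 0.218 from edgeR. FARS2 (ENSG00000145982.11) lies on chromosome 6 at 5261044 to 5829192 and LARS2 (ENSG00000011376.9) on chromosome 3 at 45388506 to 45549421, both on the plus strand, and neither shares exon bases with another annotated gene. Without knockdown library 2, edgeR's adjusted p was 0.0236 for FARS2 (log2 fold change 0.82) and 0.0353 for LARS2 (0.60), and without any 1 of the other 5 it was 0.248 to 0.697 and 0.203 to 0.656. EARS2 (glutamate) at 0.37 ± 0.19 and YARS2 (tyrosine) at 0.25 ± 0.16 also had non-overlapping groups.

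AARS2, the alanine enzyme and the mitochondrial gene of lowest level, was at 11.1, 9.96 and 10.3 CPM in knockdown and 15, 15 and 13.6 CPM in control libraries. The gene (ENSG00000124608.4) lies on chromosome 6 at 44299654 to 44313326, minus strand. The knockdown values were close together and below every control. The log2 fold change was −0.47 ± 0.18 (SE), with a nominal p of 0.0315 and an adjusted p of 0.283 from edgeR, and −0.61 with the GC trend removed. MARS2 (methionine, −0.29 ± 0.17) and NARS2 (asparagine, −0.35 ± 0.18) were lower without overlap. TARS2 (threonine) was at 43.2, 24.1 and 31.1 CPM against 47.2, 45.5 and 42.1 CPM, where knockdown library 1 was within the controls (−0.46 ± 0.23).

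The 2 mitochondrial genes of highest level did not hold 1 direction in the knockdown libraries. CARS2 was at 80.9, 50.3 and 109 CPM against 84.1, 73.7 and 72.7 CPM, the lowest and the highest value both coming from knockdown libraries. Its log2 fold change of 0.060 ± 0.26 (SE; adjusted p 0.925 from edgeR) was −0.10 with library size alone and −0.21 without knockdown library 3. IARS2 was at 192, 161 and 116 CPM against 132, 121 and 128 CPM. Libraries 1 and 2 were above the controls and library 3 below them (0.30 ± 0.20; adjusted p 0.473 from edgeR).

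In sign, 11 of the 17 mitochondrial genes were positive and 6 negative. Their median was 0.095, and it was −0.038 with library size alone, −0.025 on log2(FPKM + 1) and −0.032 on log2(FPKM + 0.1), so that its sign depended on the scaling. The median of all genes moved too, from −0.00072 to −0.13, −0.084 and −0.11 in those fits. The mitochondrial median was above that of all genes in each of them. By nominal p under 0.05, 3 were higher and 1 was lower, beside 8.17% and 7.36% of all genes, and by non-overlap 5 were higher and 3 lower, beside 11.3% and 11.2%. The 13 genes that missed that p had log2 fold changes between −0.46 and 0.37. Counts of VARS2 (0.039 ± 0.17) may include reads of GTF2H4, with which it shares 22.0% of its exon bases on the same strand.

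Cytosolic and mitochondrial genes of the same amino acid were then set side by side in 18 pairs, with EPRS, FARSA and FARSB each compared with their mitochondrial counterparts. The signs of the log2 fold changes were opposite in 9 pairs, with the mitochondrial gene positive and the cytosolic gene negative in 8 of them. Both were negative in 5 pairs and both positive in 4. The level of the mitochondrial gene as a percentage of the FPKM of the cytosolic gene does not depend on the scaling of the library. The GC trend of each library was not removed from it. With that trend removed, log2 fold changes were 0.47 for LARS2, −0.12 for LARS, 0.22 for EARS2 and −0.023 for EPRS. Before removal they were 0.54, −0.34, 0.37 and −0.24. YARS2 and YARS changed little, from 0.25 and −0.29 to 0.29 and −0.30. That percentage was higher in every knockdown library than in every control for 6 pairs, lower for 2 and overlapping for 10. The share for ratios of other gene pairs was not computed, and some of these pairs share a gene. Among single genes, 11.3% of all tested were higher without overlap and 11.2% lower.

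Leucine gave the largest of these differences. LARS2 was at 58.1%, 55.6% and 68.6% of LARS in knockdown libraries 1 to 3 and at 27.5%, 38.0% and 34.2% in the controls, a difference in the log2 ratio of 0.88 with an SD of 0.16 among knockdown and 0.24 among control libraries. SARS2 was at 4.15%, 3.55% and 2.90% of SARS against 2.25%, 1.93% and 1.91%, a difference of 0.79. YARS2 was at 49.9%, 64.8% and 46.9% of YARS against 28.8%, 42.0% and 40.0%, a difference of 0.55. The ratio was also higher without overlap for EARS2 over EPRS (0.62) and for FARS2 over FARSA (0.43) and FARSB (0.53), pairs that share FARS2. For each of the pairs without overlap the exact two-sided permutation test gave p = 0.1, the smallest that 3 against 3 libraries allow, and 0.225 after Benjamini-Hochberg adjustment over the 18 pairs. Both values follow from the absence of overlap and the number of such pairs, so they add nothing to that count. The pairs were also chosen with earlier results of these data known.

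**Figure D4:**
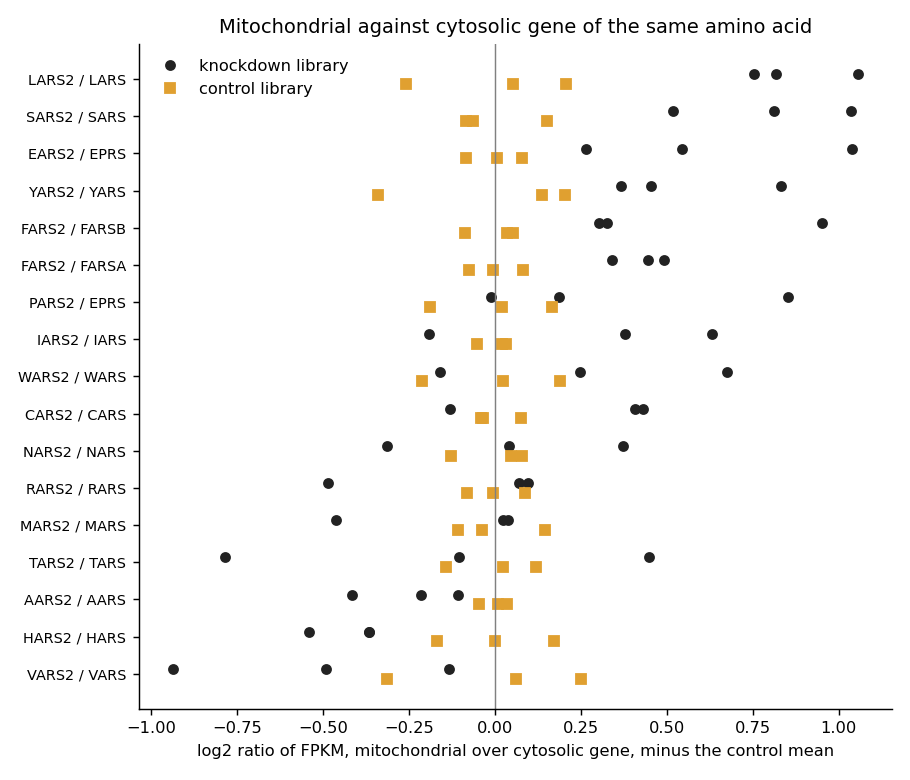
Log2 ratio of FPKM of the mitochondrial over the cytosolic gene for the same amino acid, minus the mean of the controls (x axis), in each knockdown library (circles) and control library (squares), for 17 of the 18 pairs. The circles are all to the right of the squares in the top 6 pairs, and all to the left for AARS2 over AARS and HARS2 over HARS.

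The histidine pair had the opposite order. HARS2 was at 67.1%, 59.5% and 67.0% of HARS in knockdown libraries and 76.9%, 86.5% and 97.4% in controls, a difference in the log2 ratio of −0.42 with no overlap. HARS (0.25 ± 0.15) was the positive and HARS2 (−0.17 ± 0.18) the negative member. The genes face away from each other on chromosome 5 and share a short promoter region, printed along the plus strand (chr5:140691341-140691484, RefSeq, GRCh38.p14). The capitals run from the first transcribed base of HARS, which is read leftwards, to that of HARS2, which is read rightwards, 85 bases away.
HARS and HARS2: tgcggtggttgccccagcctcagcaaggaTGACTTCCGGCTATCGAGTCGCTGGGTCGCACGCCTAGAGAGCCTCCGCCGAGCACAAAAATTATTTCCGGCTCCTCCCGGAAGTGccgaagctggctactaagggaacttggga
Neither annotated window held TGATGNAA, CACGTG or GAAANNGAA. HARS shares 8.38% and HARS2 11.7% of exon bases with genes on the other strand, each other among them.

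The GC content of the members' transcripts ran from 38.6% to 61.9%, and the differences from the control mean followed it unequally by library. Across the 40 genes, which are not independent replicates, Spearman's rho between GC content and log2 CPM minus the control mean was 0.28 in knockdown library 1, −0.11 in library 2 and 0.64 in library 3. In the controls it was 0.13, 0.31 and −0.39. For the fitted log2 fold change it was 0.34, and −0.038 after the GC trend of each library was removed. VARS (60.7% GC), SARS2 (61.5%) and QARS (55.6%) were GC-rich, and LARS (42.1%) and EEF1E1 (40.7%) were not. AARS2 (58.8%), at −0.47, and IARS2 (40.9%), at 0.30, had the opposite order, and with the trend removed they were at −0.61 and 0.54. With the trend removed, SARS2 was at 0.71, FARS2 at 0.56, LARS2 at 0.48, VARS at 0.43 and QARS at 0.42, so these 5 kept their sign. The cytosolic median was −0.0075 in that fit and the mitochondrial one 0.097. The part of GC content in the differences was not tested further.

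**Figure D5:**
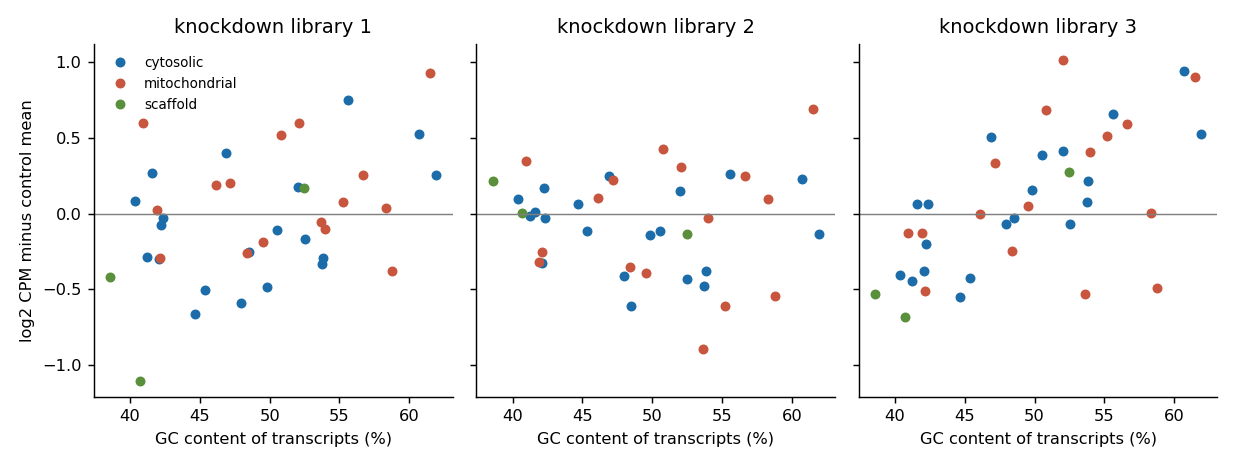
Log2 CPM minus the control mean (y axis) against mean GC content of a gene's transcripts (x axis, percent) for 39 genes in each knockdown library, coloured by role. Points climb with GC content in library 3 (Spearman's rho over all 40 genes 0.64), less in library 1 (0.28), and not in library 2 (−0.11).

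The genes around tRNA charging were followed through lists grouped by role. Of 15 genes for tRNA export and end processing, 1 was lower and 2 higher at a nominal p under 0.05, close to the 7.36% and 8.17% of all genes. XPOT, the exportin that carries mature tRNA out of the nucleus, was at 87.9, 136 and 104 CPM against 166, 150 and 161 CPM. All knockdown values were below the controls, with a log2 fold change of −0.54 ± 0.19 (SE) and an adjusted p of 0.25 from edgeR. RTCB, the tRNA ligase, was at 0.38 ± 0.16 and POP1, a subunit of RNase P, at 0.47 ± 0.19, both higher without overlap.

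Of 10 translation elongation factor genes, 1 was higher and none lower at that level (8.17% and 7.36% of all genes), with a list median of 0.11. EEF1D, an exchange factor subunit, was at 382, 336 and 406 CPM against 270, 264 and 244 CPM, without overlap (0.53 ± 0.15; adjusted p 0.203 from edgeR). EEF1A1, which delivers charged tRNA to the ribosome, was at 8029, 8535 and 9628 CPM against 7776, 6295 and 5943 CPM. Its log2 fold change was 0.39 ± 0.18 (SE), with an adjusted p of 0.332 from edgeR. Of 12 further charging and editing genes, 1 was higher and 2 were lower at a nominal p under 0.05, beside 8.17% and 7.36% of all genes. The median of these 12 was 0.14. The lower ones had low levels. TARSL2, a second cytosolic threonine enzyme at 1.89 to 4.08 CPM, had −0.65 ± 0.27. SEPSECS, which completes selenocysteine on its tRNA and was at 6.01 to 12.1 CPM, had −0.63 ± 0.23. The higher one was GATB, a subunit of the mitochondrial enzyme that forms glutamine on its tRNA (0.44 ± 0.18).

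ATF4 itself was at 445, 313 and 596 CPM in knockdown and 490, 667 and 612 CPM in control libraries. Libraries 1 and 2 were below all controls and library 3 was within them, with a log2 fold change of −0.39 ± 0.24 (SE) and an adjusted p of 0.456 from edgeR. DDIT3, which encodes the stress factor CHOP, had the same order at 40.6, 43.5 and 98.4 CPM against 64.0, 106 and 96.1 CPM (−0.55 ± 0.35). ASNS, asparagine synthetase and a described ATF4 target, was at 39.9, 49.5 and 63.0 CPM against 132, 106 and 104 CPM. The groups were far apart, with −1.17 ± 0.21 (SE) and an adjusted p of 0.145 from edgeR. CEBPG, a C/EBP partner of ATF4, was at 48.6, 52.9 and 55.5 CPM against 79.0, 86.1 and 92.8 CPM, also without overlap (−0.72 ± 0.15; adjusted p 0.159 from edgeR).

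Of the 18 genes of the amino acid starvation response, 15 had a negative and 3 a positive log2 fold change, with 2 lower (ASNS and CEBPG) and 1 higher (GCN1, listed under its older symbol GCN1L1, 0.32 ± 0.14) at a nominal p under 0.05, beside 7.36% and 8.17% of all genes. EIF2AK4 (0.21 ± 0.15) and ATF5 (0.20 ± 0.24) were also positive, EIF2AK4 without overlap. By non-overlap 2 were higher and 5 lower, beside 11.3% and 11.2% of all genes. EIF2AK1 (−0.15 ± 0.15), EIF2AK2 (−0.33 ± 0.24), EIF2AK3 (−0.25 ± 0.18) and IMPACT (−0.35 ± 0.19) were among the 15. The count thus mixes kinases and regulators with downstream genes. The list median was −0.35, with library medians of −0.39, −0.80 and 0.10 in knockdown libraries 1 to 3. Knockdown library 3 thus had the highest median of the 3 in this list. It also had the highest in the cytosolic synthetase genes with the ATF4-C/EBP letters (−0.067) and in those with a window and no match (0.38). The reason was not tested.

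WARS, the tryptophan enzyme, is known for its induction by interferon gamma. It was at 112, 141 and 174 CPM against 165, 154 and 149 CPM, below the controls in libraries 1 and 2 and above them in library 3 (−0.13 ± 0.19; adjusted p 0.739 from edgeR). Of 11 other interferon-gamma responsive genes, 5 were higher and 1 was lower by nominal p under 0.05, beside 8.17% and 7.36% of all genes, and the median was 0.42. GBP1 (1.17 ± 0.21) and GBP2 (1.16 ± 0.23), related guanylate-binding proteins, PSME1 (0.65 ± 0.15) and PSME2 (0.41 ± 0.16), proteasome activator subunits, and IDO1 (−1.29 ± 0.31), a tryptophan-degrading enzyme at 0.820 to 3.0 CPM, had groups without overlap. WARS did not have the sign of most of that list.

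Of 8 tested genes for MYC and MTOR growth control, MYC was at 173, 126 and 219 CPM against 264, 318 and 307 CPM. All knockdown values were below the controls, with a log2 fold change of −0.78 ± 0.22 (SE) and an adjusted p of 0.200 from edgeR. RPS6KB1, a kinase downstream of MTOR, was at −0.51 ± 0.23 and RPTOR, the MTOR partner that recruits its substrates, at 0.45 ± 0.18. The list median was −0.075.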

How the data were processed

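RNA was measured in 3 CALR knockdown and 3 control libraries. The submitters' processing notes name TopHat2, FastQC 0.9.5 and GRCh38; how reads were counted, on which strand and against which annotation is not given in the sources used here. The authors deposited whole-number read counts for 31582 genes and FPKM values for 31356. From the counts, edgeR 4.0.16 (R 4.3.3) applied filterByExpr, TMM scaling and its quasi-likelihood F-test to 16394 genes, with Benjamini-Hochberg adjustment and a threshold of 0.05. The SE was obtained as |log2 fold change|/√F. Log2 CPM values have a prior count of 2.

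Alternatives were DESeq2 1.42.0, its size factors in edgeR, library size alone, limma-voom (limma 3.58.1), other low-count filters, limma on the authors' FPKM as log2 with pseudocounts of 1 and 0.1 (FPKM of 1 or more in 3 libraries), a replicate block, removal of each library's GC trend (lowess, span 0.3, mean transcript GC of GENCODE 29) and leaving out each library. Exon overlaps are from GENCODE 29. Named in full were members at an unadjusted (nominal) p under 0.05, the 2 of highest FPKM per compartment, GARS and KARS, and pairs of opposite sign, and from other lists up to 5 genes at that p with ATF4, DDIT3, XPOT and EEF1A1. Others were named after their values were seen. The members and lists were chosen with earlier results of these data known. The fit was tested on simulated data. The single values of 1 member are not reported here or drawn in the figures, and it is kept in the counts and medians.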

Additional observations from a re-analysis of the deposited data

How the results depend on the processing

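The number of cytosolic genes lower at a nominal p under 0.05 (1) was 6 with library size alone and in the 3 fits on log2 FPKM, 2 with the GC trend removed, and 0 with DESeq2 and without the low-count filter. Leaving out 1 library gave 0 to 4 lower and 0 to 4 higher cytosolic genes against 2. The most of both came without knockdown library 2, where 2977 of all 16783 genes were lower and 3001 higher. Of all genes, 1809 of 16394 were lower with library size alone and 1318 of 12343 on log2(FPKM + 1). With the GC trend removed, 1403 of 16294 were lower, and with that and the block 1425 were higher. The number of mitochondrial genes lower (1) was 4 with library size alone and on log2 FPKM, 2 with the GC trend removed, with or without the block, 0 without the low-count filter, and 0 to 2 with 1 library left out; the number higher (3) was 5 with the GC trend removed and the block. The cytosolic median of −0.095 was −0.23 with library size alone, −0.23 on log2(FPKM + 1), with and without its filter, −0.24 on log2(FPKM + 0.1) and −0.0075 with the GC trend removed. The mitochondrial median of 0.095 was −0.038 with library size alone, −0.025 on log2(FPKM + 1), with and without its filter, −0.032 on log2(FPKM + 0.1), 0.058 when all libraries had to reach a CPM of 1, and 0.057 to 0.17 with 1 library left out. Genes past the adjusted threshold over the whole table (0, with 1340 higher and 1206 lower at a nominal p under 0.05) were 530 with DESeq2, 988 without the low-count filter, 5 on log2(FPKM + 1) without its filter, 4 with the GC trend removed and 12 with that and the block, and 0 to 2604 with 1 library left out, the most without knockdown library 2 and 138 without knockdown library 3. SARS changed sign with library size alone (−0.077), in the 3 fits on log2 FPKM (−0.072), with the GC trend removed and the block (−0.0050), and with 1 library left out (−0.098 to 0.16). CARS2 did so with library size alone (−0.10), limma-voom (−0.0098), log2(FPKM + 1) with and without its filter and log2(FPKM + 0.1) (−0.13 each), the block (−0.0072), the GC trend removed (−0.11), that with the block (−0.14), and with 1 library left out (−0.21 to 0.31). The median of all genes also moved, from −0.00072 to −0.13 with library size alone and 0.017 with the GC trend removed. It was −0.084 on log2(FPKM + 1), −0.014 without the filter of that fit, and −0.11 on log2(FPKM + 0.1). The shifts of the members are thus to be read beside those of all genes, and their cause was not tested. VARS, QARS, KARS, LARS, GARS, SARS2, FARS2, LARS2, IARS2 and AARS2 kept their sign under all alternatives run.

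With the replicate number as a replicate block, 0 cytosolic and 0 mitochondrial genes were lower at a nominal p under 0.05, beside 1229 of all 16394 genes. In that fit, 0 genes passed the adjusted threshold. The labels do not say that the numbers pair the libraries. The correlation of same-numbered deviations was 0.195, −0.119 and −0.217, which cannot decide it with 3 libraries per group. Knockdown library 1 kept 47.5% of CALR, and the labels name no culture or batch for the spread between the knockdown libraries.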
